A study of Rattus norvegicus with 22 samples.

Results

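The genes described here are 9 genes of the Hippo, YAP and TAZ pathway: Yap1, Wwtr1 (which encodes TAZ), Tead1, Tead4, Lats1, Lats2, Amotl2, Ctgf (now Ccn2) and Cyr61 (now Ccn1). They were chosen by name, as the probes whose gene name in the scanner files is one of these. Of the 9, 7 genes had a named probe, with 8 probes in all, among 30367 probes on the array and 23479 genes tested. Lats2 had 2 probes, and Tead4 and Lats1 had none under those names. The files describe 1 further probe, without naming it, as the large tumor suppressor gene (Lats1) and 2 as predicted transcripts similar to Tead4. These are given below as described probes and enter no count of members.

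RNA came from engineered cardiac tissues, cylinders of rat heart cells in a matrix gel held between anchors. The cells came from Sprague Dawley rats at gestational day 14.5 (embryonic ventricle), and every tissue was kept in culture for 7 days. Control tissues (7 arrays) received neither treatment, and stretch tissues (7 arrays) were cyclically stretched for 48 h from culture day 5, at 0.5 Hz and 5% elongation. BIRB796 tissues (4 arrays) received 10 µM BIRB796, an inhibitor of the stress-activated kinase p38 MAPK, for 48 h from day 5. Stretch with BIRB796 tissues (4 arrays) received both. No genetic change is named for any group, and the cells are a mixture from the whole ventricle, so a change in bulk RNA cannot be told apart from a change in the share of a cell type. The labels tie no tissue to a litter or a cell preparation, so a p-value here speaks only of the spread among these tissues.

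YAP and TAZ are coactivators that lack a DNA-binding domain of their own and act on genes through the TEAD transcription factors. The Hippo kinases MST1 and MST2 (encoded by Stk4 and Stk3) activate the kinases LATS1 and LATS2, which phosphorylate YAP and TAZ and hold them in the cytoplasm. Mechanical tension, a stiff matrix and a spread cell shape favour nuclear YAP and TAZ, which in the embryonic heart promote cardiomyocyte growth. CTGF and CYR61 are secreted matrix-associated proteins of the CCN family whose genes are the usual readouts of YAP and TAZ. Because nuclear location and phosphorylation set the activity of the pathway, RNA levels report on how much of each component was made and on the targets, not on that activity itself.

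TEAD factors recognise a short core, CATTCC on one strand and GGAATG on the other, and the promoters of the members show which carry that core. The RefSeq table of assembly GRCr8 listed 6 of the 9 members (Ctgf, Cyr61, Amotl2, Yap1, Wwtr1 and Lats1). In the 250 bases before the annotated start, 4 of the 6 held at least 1 copy on either strand, against 12.1% of 33469 promoters of the same length (4037 promoters). The 4 are printed 5′ to 3′ on the strand of the gene, with each core in capitals, because they are the members whose letters hold it.
Ctgf: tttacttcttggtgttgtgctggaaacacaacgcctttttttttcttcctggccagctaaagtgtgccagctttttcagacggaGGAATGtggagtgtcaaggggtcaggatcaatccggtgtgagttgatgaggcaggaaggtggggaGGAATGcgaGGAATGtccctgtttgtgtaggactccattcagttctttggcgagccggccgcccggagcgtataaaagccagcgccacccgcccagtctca
Cyr61: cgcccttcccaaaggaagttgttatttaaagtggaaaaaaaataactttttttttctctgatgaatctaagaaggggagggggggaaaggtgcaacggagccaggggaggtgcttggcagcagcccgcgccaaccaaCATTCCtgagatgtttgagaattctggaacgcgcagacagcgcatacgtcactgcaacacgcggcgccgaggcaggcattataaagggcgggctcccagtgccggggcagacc
Amotl2: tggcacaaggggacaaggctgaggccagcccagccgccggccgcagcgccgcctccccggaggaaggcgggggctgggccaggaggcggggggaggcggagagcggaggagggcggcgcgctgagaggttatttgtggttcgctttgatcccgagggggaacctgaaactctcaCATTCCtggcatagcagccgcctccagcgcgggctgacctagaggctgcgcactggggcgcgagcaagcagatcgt
Yap1: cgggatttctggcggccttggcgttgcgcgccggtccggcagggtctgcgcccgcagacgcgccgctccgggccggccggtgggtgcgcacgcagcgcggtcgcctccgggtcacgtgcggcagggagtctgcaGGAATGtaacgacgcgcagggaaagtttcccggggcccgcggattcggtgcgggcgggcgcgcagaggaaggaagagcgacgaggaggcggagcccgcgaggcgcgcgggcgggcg
The Ctgf promoter (chr1:22624615-22624864, minus strand) held 3 cores, which begin 166, 101 and 92 bases before the start. Among all promoters, 27 (0.0807%) held 3 or more. The Cyr61 promoter (chr2:237225690-237225939, minus strand) held 1 core, beginning 113 bases before the start. The Amotl2 promoter (chr8:112182376-112182625, plus strand) held 1, at 76 bases, and the Yap1 promoter (chr8:13451438-13451687, minus strand) held 1, at 116 bases. The windows of Wwtr1 and Lats1 held none of these letters. A match of letters is a description of the sequence, and binding was not measured.

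**Figure D1:**
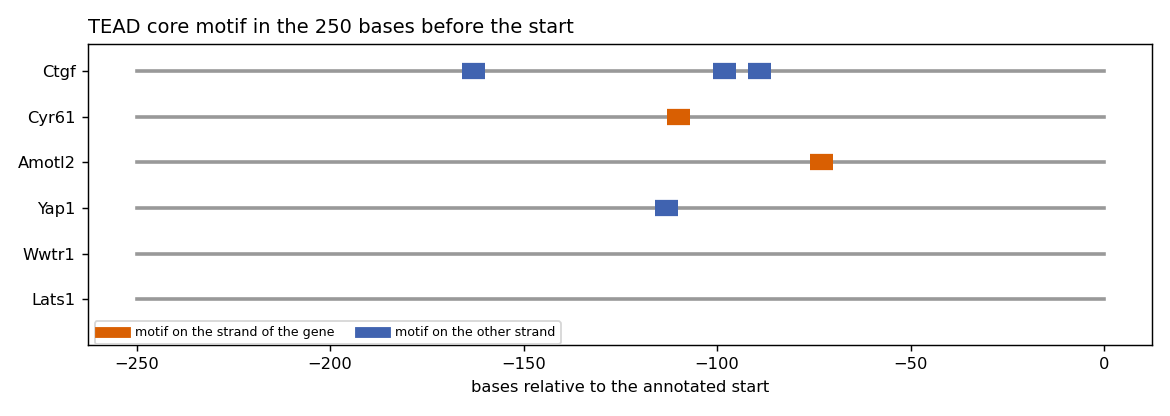
Positions of the TEAD core in the 250 bases before the start of the 6 members that the RefSeq table lists, in bases relative to the start; orange marks the core read as CATTCC on the strand of the gene and blue the core on the other strand. Ctgf has 3 cores, Cyr61, Amotl2 and Yap1 have 1 each, and Wwtr1 and Lats1 have none.

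Levels are log2 signal intensities with the array's 75th percentile subtracted, so 0 stands for a fairly bright probe, and levels of different probes are not set against each other. The headers show 3 scan sessions. Session 1 held control 1 to 3 and stretch 1 to 3, session 2 held stretch 4 to 7 alone, and session 3 held control 4 to 7 and all 8 tissues with BIRB796. Session 1 arrays had 82.6% to 91.3% of probes well above background, session 2 arrays 65.5% to 73.1% and session 3 arrays 71.4% to 79.9%. The first principal component held 74.8% of the variance, and whether it follows session, group or single arrays was not tested. Stretch replicates 4 and 5 differed by less than the noise between repeated spots and were averaged as 1 sample, which left 21 samples. Stretch replicate 7, in session 2, stood apart: its 75th percentile signal was 510 (1140 to 3062 on the other 21 arrays) and 65.5% of its probes were well above background. Its distance from the other stretch arrays was 10.3 to 13.3 times the noise between repeated spots, against 3.47 to 10.1 times for the other pairs of stretch samples. With the session term it gives no part of the stretch fold changes. It does enter the shared estimate of the spread, and so the errors, intervals and p-values of the fits of all samples. Values without it are given for Tead1, for the fit without a session term and within the single-sample removals of the stretch comparisons. Fits of session 3 alone do not hold it. The cardiomyocyte markers (8 of 8 above background on all arrays) had a mean level of 4.19 to 4.70 in the control tissues of session 3, so heart muscle RNA was detected. All 8 probes of the members were well above background on all 22 arrays except the Tead1 probe, which was on 21, and none was saturated.

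The design asks what stretch changes, what p38 inhibition changes, and whether stretch acts differently when p38 is inhibited. One limma model with a term for group and a term for scan session was fitted to all genes. Stretch against control then rests on session 1, and the BIRB796 comparisons rest on session 3. A gene was called where the Benjamini-Hochberg adjusted p over all 23479 genes was under 0.05. None of the 7 members was called in any of the 6 comparisons. The share of all genes called was 0% for stretch against control, for BIRB796 against control, for stretch with BIRB796 against BIRB796, for stretch with BIRB796 against stretch and for the difference between the stretch effects. It was 0.098% (23 genes) for stretch with BIRB796 against control. At an unadjusted p under 0.05 the limma fit had 3.2% of genes for stretch against control, with 0 of the 7 members, and 6.58% for BIRB796 against control, with 3 members (Ctgf, Cyr61 and Lats2). It had 9.6% for stretch with BIRB796 against control, with 2 members (Lats2 and Wwtr1), and 1.81% for stretch with BIRB796 against BIRB796, with 0 members. The last 2 comparisons, stretch with BIRB796 against stretch and the difference between the stretch effects, had 2.4% and 1.29% of genes, also with 0 members.

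**Figure D2:**
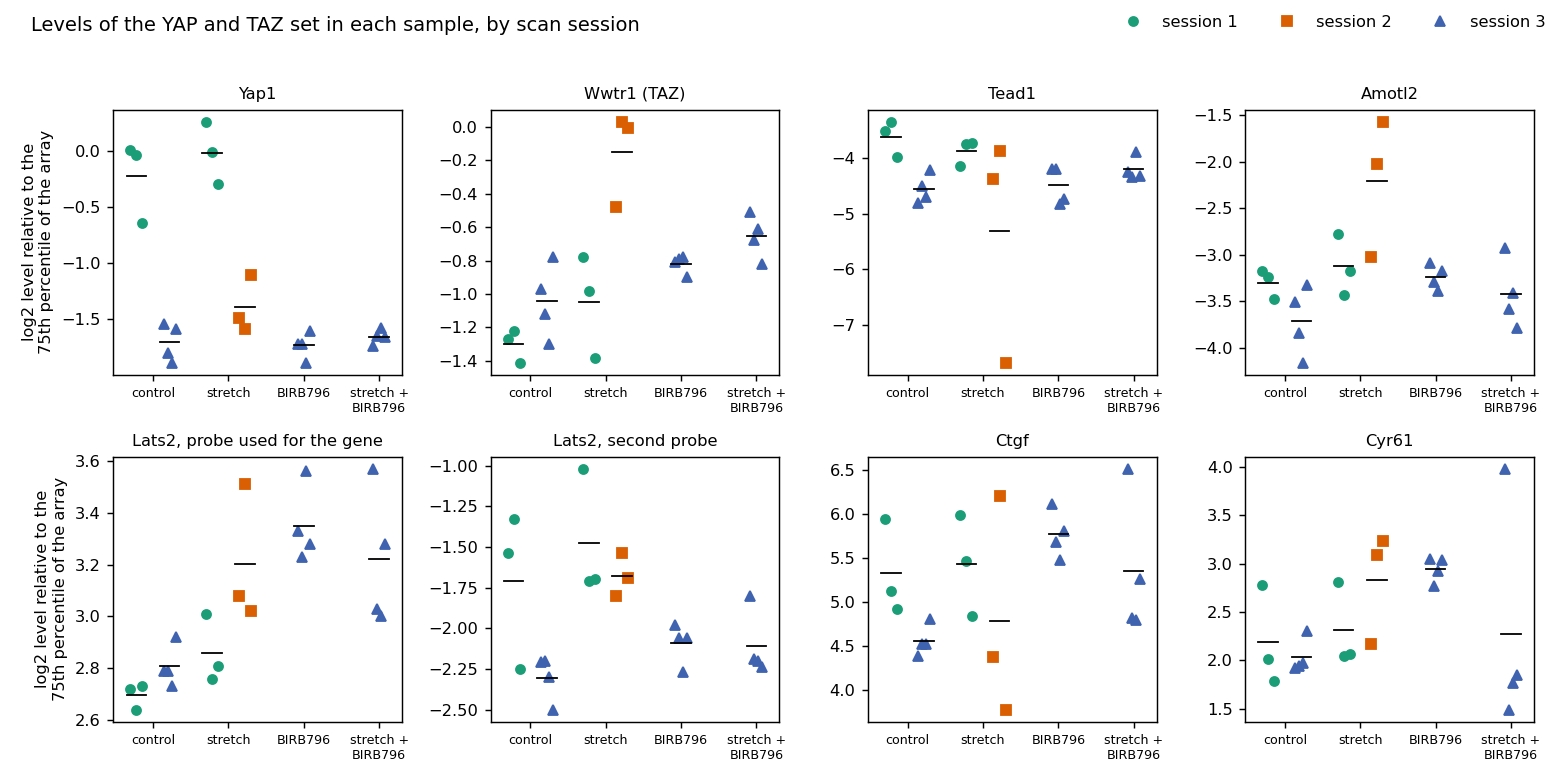
Log2 level of each probe of the 7 members relative to the array's 75th percentile (vertical axis, a separate scale for each panel) in every sample, by group; colour and shape give the scan session and black lines the mean of a group in a session. In session 3 the 4 BIRB796 tissues lie above the 4 control tissues for Ctgf, Cyr61 and the Lats2 probe used for the gene.

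The coactivator genes themselves differed little between groups of a session. Yap1 was read by a probe at chr8:4846155-4846214 (rn4, minus strand), which starts at base 402 of its transcript. In session 1 its level was 0.01, -0.04 and -0.64 in control tissues 1 to 3 and 0.26, -0.01 and -0.30 in stretch tissues 1 to 3. The groups overlapped, with a log2 fold change of 0.21 ± 0.19 (SE; limma adjusted p = 1). In session 3 Yap1 was -1.55, -1.80, -1.89 and -1.59 in control tissues 4 to 7. It was -1.72, -1.72, -1.89 and -1.61 with BIRB796 and -1.74, -1.65, -1.58 and -1.66 with stretch and BIRB796. All 3 groups overlapped, and the log2 fold change for BIRB796 against control was -0.03 ± 0.16, with a 95% interval from -0.37 to 0.32. Stretch tissues of session 2 had -1.49 (replicates 4 and 5 averaged), -1.59 and -1.11. The 6 tissues of session 1 thus lay above the other 15 samples whatever their treatment, with control means of -0.22 in session 1 and -1.71 in session 3.

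Wwtr1, the TAZ gene, was read by a probe that covers chr2:146717947-146719412 (rn4, minus strand), a span of 1466 bases for a 60-base probe, so the probe crosses an intron. In session 1 its level was -1.27, -1.22 and -1.41 in the control tissues and -0.78, -0.98 and -1.38 in the stretch tissues. On each of the 3 slides, which held 1 tissue of each group, the stretch tissue was the higher, by 0.49, 0.24 and 0.04. The groups overlapped and the log2 fold change was 0.26 ± 0.18 (limma adjusted p = 1). In session 3 the control tissues had -0.97, -1.12, -1.30 and -0.78, and the BIRB796 tissues had -0.81, -0.79, -0.78 and -0.90. Tissues with stretch and BIRB796 had -0.51, -0.68, -0.61 and -0.82. Of these, 3 of 4 lay above every control tissue. The log2 fold change of the combined treatment against control was 0.39 ± 0.15 (1.31-fold, unadjusted p = 0.0212, limma adjusted p = 0.395). BIRB796 alone gave 0.22 ± 0.15 against control (adjusted p = 0.988). The 3 stretch samples of session 2 had -0.48, 0.03 and -0.01, the 3 highest values of Wwtr1 in the series, and no control tissue was scanned with them.

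Among the TEAD partners, Tead1 was measured by a dim probe at chr1:170690631-170690690 (rn4, plus strand). Its level was -3.51, -3.35 and -3.99 in the control tissues of session 1 and -4.15, -3.75 and -3.73 in the stretch tissues. The ranges overlapped, and the log2 fold change was -0.26 ± 0.61 (limma adjusted p = 1). The width of that error follows stretch replicate 7 in session 2, which read -7.67 and was not well above background there, while the other 5 stretch samples ran from -4.38 to -3.73. Without that sample the change was the same and its unadjusted p was 0.278 in place of 0.676. In session 3 control tissues ran from -4.81 to -4.21, BIRB796 tissues from -4.83 to -4.19 and tissues with both treatments from -4.35 to -3.89. These ranges overlap as well, with 0.07 ± 0.53 for BIRB796 and 0.35 ± 0.53 for both treatments against control. The described Tead4-like probes gave 0.14 ± 0.23 and 0.22 ± 0.39 for stretch and 0.23 ± 0.20 and 0.34 ± 0.34 for BIRB796 against control. For the second of these, the predicted transcript RGD1562216, all 4 BIRB796 tissues (-5.13 to -4.88) lay above all 4 control tissues (-5.39 to -5.24), although its adjusted p over 26884 probes was 1. All BIRB796 tissues lay above all controls for 6.6% of genes. That probe was dim as well, with signals of 33 to 67 in these tissues, and was well above background on 21 of 22 arrays.

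Lats2, the kinase that restrains YAP and TAZ and is itself one of their targets, was higher in every BIRB796 tissue than in any control tissue of session 3. Its brighter probe, at chr15:36720090-36720149 (rn4, minus strand), was spotted 10 times on each array and starts at base 4808 of the transcript. It read 2.79, 2.79, 2.73 and 2.92 in control tissues 4 to 7 and 3.33, 3.23, 3.56 and 3.28 with BIRB796. With stretch and BIRB796 it read 3.57, 3.03, 3.00 and 3.28, again above all 4 controls. Non-overlap of this kind was found for 11.9% of genes in BIRB796 against control and 17.1% in the combined treatment against control. In BIRB796 against control 3 of 7 members did not overlap (Ctgf, Cyr61 and Lats2), and in the combined treatment 1 of 7 did not (Lats2). The log2 fold change for BIRB796 was 0.54 ± 0.14 (1.46-fold, 95% interval 0.24 to 0.84, unadjusted p = 0.00144), with a limma adjusted p of 0.307, or 0.0563 when session 3 was fitted alone. The combined treatment gave 0.41 ± 0.14 against control (adjusted p = 0.317).

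The second Lats2 probe, at chr15:36721751-36721810 and 1 spot per array, starts at base 3147 of the same transcript and did not separate the groups. It read -2.21, -2.20, -2.30 and -2.50 in the control tissues of session 3 and -1.98, -2.06, -2.27 and -2.06 with BIRB796. The ranges overlapped, and its log2 fold change was 0.21 ± 0.19 (limma adjusted p over probes = 1). The probes of Lats2 therefore share a direction but differ in size, and the non-overlap of Lats2 rests on the brighter one. In session 1 that brighter probe read 2.72, 2.64 and 2.73 in control and 3.01, 2.76 and 2.81 in stretch tissues. These groups did not overlap either, as for 9.31% of all genes and 1 of 7 members, but the log2 fold change was 0.17 ± 0.17 (limma adjusted p = 1). The probe described as Lats1, the paralogous kinase, gave -0.01 ± 0.20 for stretch and 0.15 ± 0.17 for BIRB796 against control, with overlapping groups in both.

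Amotl2 encodes a junction-associated angiomotin that binds YAP and promotes its cytoplasmic retention, and it is also a target gene. Its probe lies at chr8:107706680-107706739 (rn4, plus strand). In session 3 it read -3.51, -3.84, -4.16 and -3.33 in control tissues and -3.09, -3.29, -3.39 and -3.18 with BIRB796. Only control replicate 7 reached into the BIRB796 range, and the log2 fold change was 0.47 ± 0.27 (1.39-fold, limma adjusted p = 0.892). With both treatments it read -2.93, -3.58, -3.41 and -3.79, which overlaps the other groups, and the change against control was 0.28 ± 0.27. In session 1 control tissues had -3.18, -3.24 and -3.48 and stretch tissues -2.78, -3.43 and -3.17, a change of 0.18 ± 0.31 with overlap. The stretch samples of session 2 read -3.02, -2.03 and -1.57, and the last 2 are the highest Amotl2 values of the series, the -1.57 being replicate 7, the array that stood apart. With the session term left out, those samples enter the stretch comparison and the log2 fold change becomes 0.87 ± 0.26 (limma adjusted p = 0.0833, with 1.26% of genes called and 0 members), a comparison in which stretch and scan session cannot be told apart. Leaving out stretch replicate 7 as well gives 0.65 (limma adjusted p = 0.133, with 436 genes and 0 members called).

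Ctgf had the largest fold change of the 7 members in the 6 comparisons, for BIRB796 alone against control. Its probe, at chr1:21327574-21327633 (rn4, minus strand), was spotted 10 times on each array. In session 3 it read 4.39, 4.52, 4.52 and 4.81 in control tissues 4 to 7 and 6.11, 5.68, 5.48 and 5.81 in BIRB796 tissues 1 to 4. Every BIRB796 tissue was above every control tissue, and the log2 fold change was 1.21 ± 0.44 (2.31-fold, 95% interval 0.27 to 2.14, unadjusted p = 0.0141). The limma adjusted p was 0.542, and 0.083 when session 3 was fitted alone, where 1.96% of all genes (460) and 0 of 7 members were called. Leaving out each of the 11 control and BIRB796 tissues in turn gave 1.095 to 1.303. A fit with array weights and a mean-variance trend called 11.6% of all genes (2724) and 4 of 7 members, Ctgf, Cyr61, Lats2 and Amotl2, all higher with BIRB796 (limma adjusted p from 0.00148 to 0.0332). For the combined treatment that fit called 19.4% (4552) and 2 of 7 members, Wwtr1 and Lats2. Tissues with both treatments read 6.51, 4.82, 4.80 and 5.26. Replicate 1 was the highest Ctgf value of the series, and replicates 2 and 3 lay at the level of control replicate 7. The change of the combined treatment against control was 0.79 ± 0.44 (adjusted p = 0.656), and 0.40 without its replicate 1.

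With stretch alone the Ctgf values of session 1 overlapped those of control. Control tissues 1 to 3 read 5.94, 5.13 and 4.92 and stretch tissues 1 to 3 read 5.99, 5.46 and 4.84. The tissues of 1 slide lay close together, at differences of 0.05, 0.33 and -0.08, and the order from slide to slide was the same in both groups. The log2 fold change was 0.10 ± 0.51 (limma adjusted p = 1), with a 95% interval from -0.98 to 1.18. The stretch samples of session 2 read 4.38, 6.20 and 3.78, the widest spread of Ctgf in any group of a session (SD 1.26, n = 3).

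Cyr61 was also higher in every BIRB796 tissue than in the control tissues, while 3 of 4 tissues with the combined treatment were lower than control. Its probe lies at chr2:243824364-243824423 (rn4, minus strand). In session 3 it read 1.92, 1.94, 1.97 and 2.30 in the control tissues and 3.05, 2.77, 2.92 and 3.04 with BIRB796. The groups did not overlap, and the log2 fold change was 0.91 ± 0.41 (1.89-fold, 95% interval 0.05 to 1.78, unadjusted p = 0.0397, limma adjusted p = 0.706). Tissues with both treatments read 3.98, 1.49, 1.77 and 1.85. Replicate 1 was the highest Cyr61 value of the series, while replicates 2 to 4 lay below every control tissue of the session. The combined treatment differed from control by 0.24 ± 0.41, and by -0.33 without replicate 1. Against BIRB796 alone it differed by -0.67 ± 0.41 (unadjusted p = 0.12, adjusted p = 1), and by -1.24 without replicate 1 (adjusted p = 0.668).

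In session 1 Cyr61 read 2.78, 2.01 and 1.79 in control and 2.81, 2.05 and 2.07 in stretch tissues. As for Ctgf, the tissue pair on slide 1 was high in both groups. The log2 fold change was 0.12 ± 0.48 (limma adjusted p = 1). The stretch samples of session 2 read 2.17, 3.09 and 3.23, and replicate 7, the array that stood apart, was the highest of them for Cyr61 and the lowest for Ctgf.

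**Figure D3:**
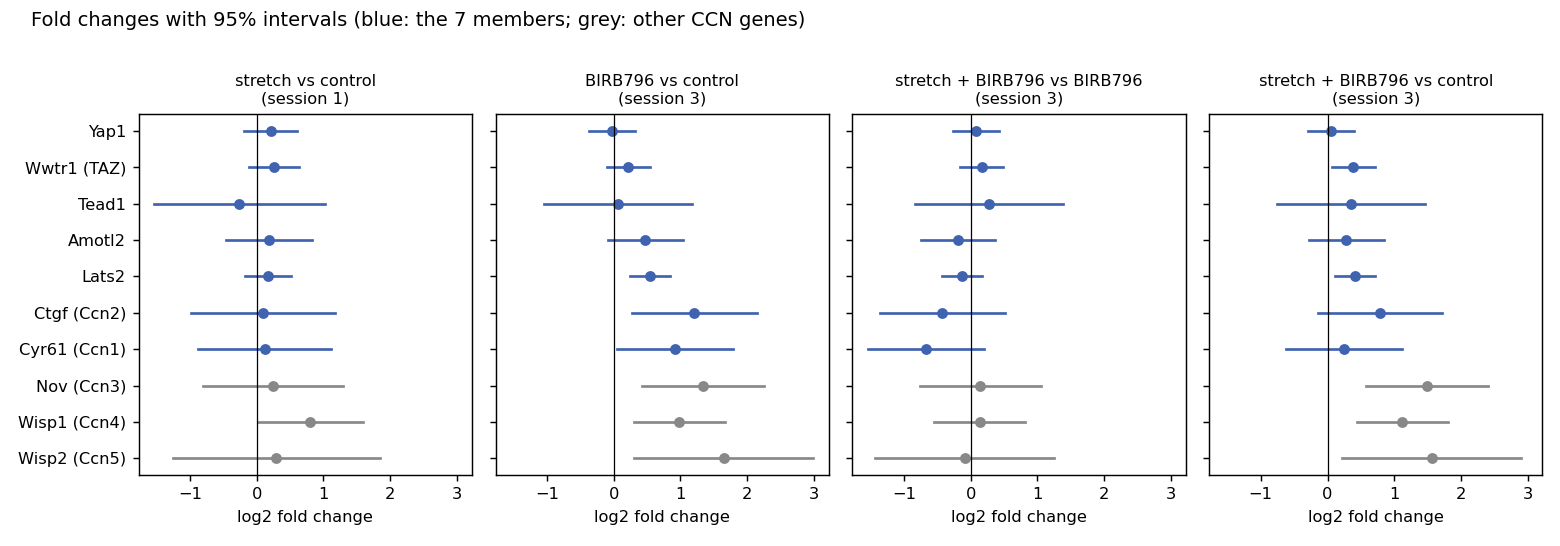
Log2 fold changes (points) with 95% intervals (lines) of the 7 members in blue and of 3 other CCN genes in grey, for 4 comparisons; the vertical line marks no change. The widest distance from 0 among members is Ctgf with BIRB796, at 1.21, and in stretch against control each member's interval includes 0.

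Slides divide session 3 further, and the values of Ctgf and Cyr61 with both treatments differ by slide. Slide 6 held 1 control tissue, 1 with BIRB796 and 1 with both treatments, and there Ctgf read 4.39 in control, 6.11 with BIRB796 and 6.51 with both, while Cyr61 read 1.92, 3.05 and 3.98. Slide 8 held 1 control and 2 tissues with both treatments. There Ctgf was 4.81 in control against a mean of 4.81 with both, and Cyr61 was 2.30 against 1.63. Slide 9 held 3 BIRB796 tissues and 1 tissue with both. There Ctgf was 5.66 on average with BIRB796 against 5.26 with both, and Cyr61 was 2.91 against 1.85. BIRB796 and control share only slide 6, where BIRB796 was higher by 1.71 for Ctgf, 1.13 for Cyr61 and 0.53 for Lats2. The part of the slide in these values was not tested. Fits with slide as a random or fixed block called 0 of 7 members in BIRB796 against control and in the combined treatment against control. Over 12 alternatives, those slide fits among them, BIRB796 against control ranged from 0.877 to 1.253 for Ctgf and 0.825 to 0.972 for Cyr61. For Lats2 the range was 0.212 to 0.591, but alternatives with other values picked the brightest probe anew. Its low end equals the change of the second Lats2 probe in the fit of probes (0.212 ± 0.193), where the brighter probe had 0.542 ± 0.144.

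**Figure D4:**
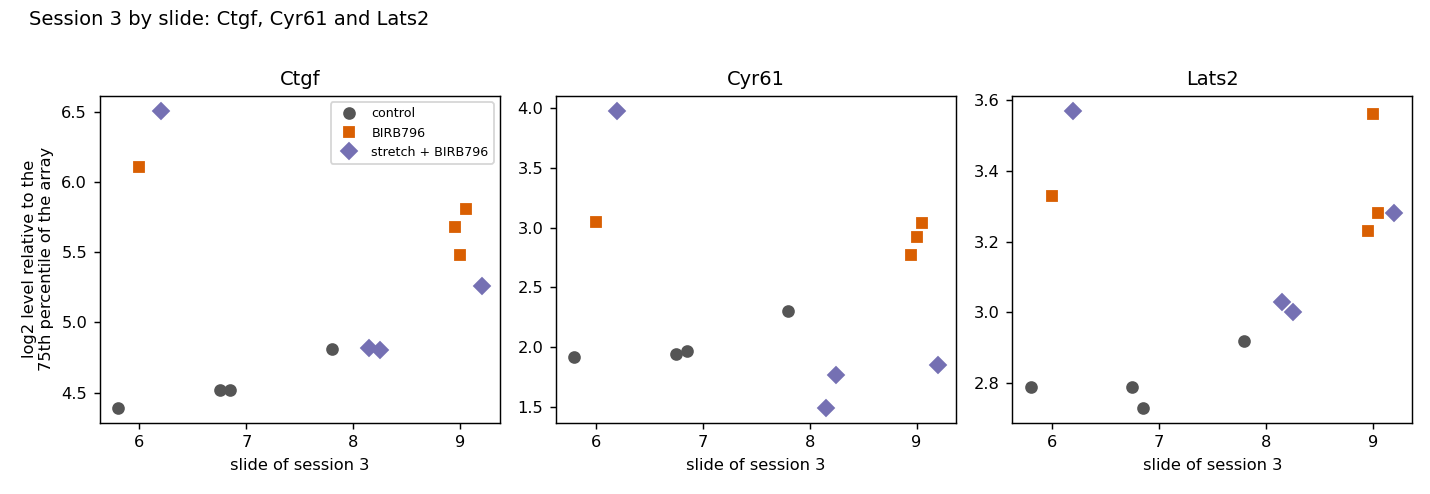
Log2 levels of Ctgf, Cyr61 and Lats2 (its brighter probe) relative to the array's 75th percentile, by slide of session 3; circles are control, squares BIRB796 and diamonds stretch with BIRB796 tissues. On slide 6 the tissue with both treatments is the highest, and on slides 8 and 9 Cyr61 with both treatments lies below the other group of the slide.

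The difference between the stretch effect with and without BIRB796 was tested directly. It was -0.79 ± 0.63 for Cyr61, -0.52 ± 0.68 for Ctgf, -0.37 ± 0.41 for Amotl2 and -0.30 ± 0.22 for Lats2, each with a limma adjusted p of 1. For Wwtr1 it was -0.09 ± 0.23, for Yap1 -0.13 ± 0.25 and for Tead1 0.54 ± 0.81. All of these intervals include 0. Tissues with both treatments and stretch tissues shared no scan session, so that comparison is the sum of steps through the controls. It gave 0.69 ± 0.68 for Ctgf, 0.12 ± 0.63 for Cyr61 and -0.16 ± 0.25 for Yap1.

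Around the members, the Hippo and TEAD list held 32 measured genes of 36, members included. With all samples none was called in stretch against control, in BIRB796 against control or in the combined treatment against control. In stretch against control 17 of 32 had a positive fold change, with a median of 0.03 against 0.08 over all genes, of which 62.7% were positive. In session 1 the groups did not overlap for 6 of the 32, against 9.31% of all genes: Lats2 and Stk4 were higher and Stk3, Tead2, Vgll4 and Wwc1 lower. Tead2, a TEAD factor of the early embryo, was lower in all 3 stretch tissues of session 1 than in the controls, at -0.49 ± 0.17 (unadjusted p = 0.00868, limma adjusted p = 1). Vgll4, which competes with YAP for TEAD, was lower in all 3 as well, at -0.30 ± 0.17, and so were the kinase gene Stk3, at -0.33 ± 0.46, and the scaffold gene Wwc1 (KIBRA), at -0.79 ± 0.54. Stk4 was higher, at 0.34 ± 0.25 (adjusted p = 1 for each). With BIRB796, 20 of 32 were positive, with a median of 0.06 against 0.01 over all genes. Nf2 (merlin, an upstream activator of the kinases) had -0.12 ± 0.15, Sav1 -0.05 ± 0.27, Stk3 0.08 ± 0.40, Stk4 -0.20 ± 0.22, Tead2 -0.17 ± 0.15, Tead3 0.20 ± 0.16 and Vgll4 -0.06 ± 0.15. With session 3 fitted alone, 1 of 32 was called, against 1.96% of all genes: Wwc1, lower with BIRB796 at -0.82 (limma adjusted p = 0.0421). With both treatments against control 26 of 32 were positive, against 56.2% of all genes, with a median of 0.15 against 0.04. With session 3 fitted alone, 3 of 32 were called there, against 7.57% of all genes. Fat1, an atypical cadherin gene, was higher at 0.66 and Vgll3, which encodes a TEAD cofactor, at 0.37, and Wwc1 was lower at -0.69 (limma adjusted p = 0.0436, 0.0425 and 0.0378).

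The target list held 22 measured genes of 26, of which Ctgf, Cyr61, Lats2 and Amotl2 are members. With BIRB796 against control 19 of 22 had a positive fold change, against 52.2% of all genes, and the median was 0.30 against 0.01. None was called, and 8 lay above the controls in every tissue of session 3, a pattern shown by 6.6% of all genes. These were Axl, Ccdc80, Crim1, Nt5e and Tgfb2 beside Ctgf, Cyr61 and Lats2. Axl, a receptor tyrosine kinase, read -3.15, -3.18, -3.44 and -2.56 in control tissues and -2.46, -2.45, -2.31 and -2.49 with BIRB796, a change of 0.66 ± 0.26 (limma adjusted p = 0.616). Ankrd1, a stretch-sensitive cardiac gene, differed by 0.46 ± 0.31, and its groups overlapped. Igfbp3 and F3 were at -0.88 ± 0.35 and -0.70 ± 0.36.

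With both treatments against control, 20 of 22 targets were positive (56.2% of all genes), with a median of 0.33 against 0.04. None was called with all samples. With session 3 fitted alone, 7.57% of all genes were called (1777) and 6 of 22 targets. Axl, Fjx1, Tgfb2 and Thbs1 were higher and F3 and Igfbp3 lower. Tgfb2, a growth factor gene, had 1.23 ± 0.34 in the fit of all samples (2.35-fold, limma adjusted p = 0.186, 0.0449 for the session alone), and Igfbp3 had -1.41 ± 0.35 (adjusted p = 0.136, 0.0132 for the session alone). In stretch against control 14 of 22 were positive, with a median of 0.11 against 0.08. There F3, the tissue factor gene, was lower in all 3 stretch tissues, at -1.32 ± 0.41 (unadjusted p = 0.00499, adjusted p = 1).

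Of the 4 other CCN genes 3 were measured (Ccn3, Ccn4 and Ccn5), and Ccn6 was below the filter on dim probes. Their fold changes against control were positive in both BIRB796 groups, but with all samples none was called. Of all genes, 52.2% were positive with BIRB796 and 56.2% with both treatments. In stretch against control, where 62.7% of all genes were positive, they were positive as well. The changes were 0.24 ± 0.50 for Ccn3, 0.80 ± 0.37 for Ccn4 and 0.29 ± 0.74 for Ccn5. There none was called and the groups of session 1 overlapped. Ccn3 (Nov) read 1.41, 1.75, 1.81 and 2.13 in the control tissues of session 3, 3.59, 2.84, 3.07 and 2.97 with BIRB796, and 4.01, 2.91, 2.91 and 3.23 with both. Neither treated group overlapped the controls, as for 11.9% of all genes with BIRB796 and 17.1% with both. The log2 fold changes were 1.34 ± 0.43 and 1.49 ± 0.43 (limma adjusted p = 0.438 and 0.205). With session 3 fitted alone these changes of Ccn3 were called, at limma adjusted p = 0.0363 and 0.0147. Those fits called 1.96% of all genes with BIRB796 and 7.57% with both. Ccn5 (Wisp2) read -1.99, -1.99, -2.26 and -1.41 in control tissues and 0.62, -0.42, -0.78 and -0.46 with BIRB796, a change of 1.65 ± 0.64 (adjusted p = 0.605, 0.0496 for the session alone). With both treatments Ccn5 differed by 1.56 ± 0.64 (adjusted p = 0.422, 0.0321 for the session alone). Ccn4 (Wisp1) differed from control by 0.98 ± 0.32 with BIRB796 and by 1.12 ± 0.32 with both (adjusted p = 0.456 and 0.203, or 0.0901 and 0.0364 for the session alone). With BIRB796 alone its range overlapped that of the controls. Between both treatments and BIRB796 alone the log2 differences were 0.15 ± 0.43 for Ccn3, 0.14 ± 0.32 for Ccn4 and -0.09 ± 0.64 for Ccn5, beside -0.67 ± 0.41 for Cyr61. Whether Cyr61 differs from them in this was not tested.

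**Figure D5:**
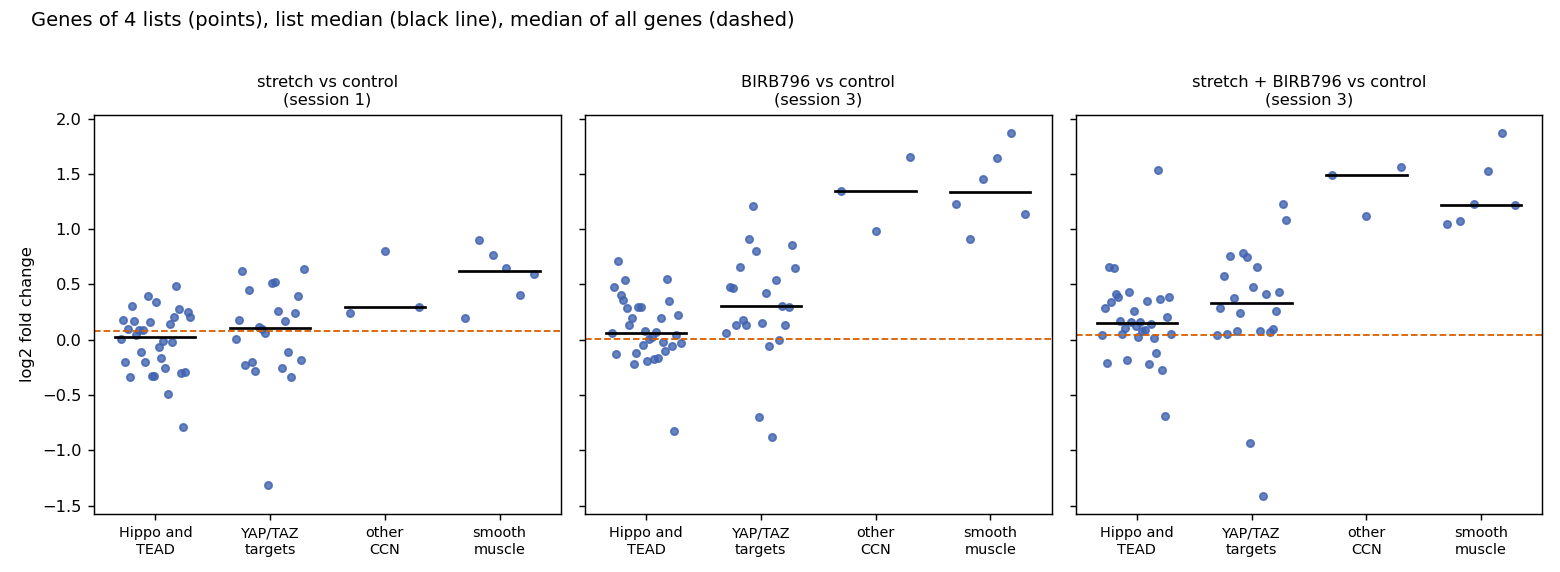
Log2 fold change of each measured gene (points) of the Hippo and TEAD list, the target list, the other CCN genes and the smooth muscle markers in 3 comparisons; black lines are list medians and the dashed line the median of all genes. With BIRB796 against control the medians are 0.06, 0.30, 1.34 and 1.34 from left to right.

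Of the smooth muscle and pericyte markers, all 6 of 6 (Acta2, Myh11, Cnn1, Tagln, Rgs5 and Cspg4) were measured, and their mean level ran from 0.58 to 1.34 in control tissues of session 3, from 1.84 to 2.73 with BIRB796 and from 1.79 to 2.96 with both. All 6 lay above the controls in every BIRB796 tissue, with fold changes of 0.91 to 1.86 on the log2 scale and 0 called with all samples; that pattern was shown by 6.6% of all genes. With session 3 alone 3 of 6 were called in BIRB796 against control (Acta2, Myh11 and Tagln), against 1.96% of all genes. Epicardial and mesothelial markers went the other way, with mean levels of -0.68 to 0.09 in control, -2.03 to -0.80 with BIRB796 and -1.91 to -0.83 with both. Among them, Krt19 changed by -1.62 ± 0.27 with BIRB796 (limma adjusted p = 0.113 with all samples, 0.0301 for the session alone). Wt1, Upk3b, Msln, Upk1b and Aldh1a2 were lower as well but were not called in either fit. The fibroblast mean, over the 5 of 6 genes with a value in every sample, ran from 2.24 to 2.40 in control, from 1.93 to 2.17 with BIRB796 and from 1.96 to 2.33 with both. Endothelial markers ran from -2.57 to -2.30 in control, from -3.08 to -2.58 with BIRB796 and from -3.36 to -3.12 with both. Macrophage markers (6 of 7 measured) had means of 2.17 to 3.03 in control, 2.03 to 2.49 with BIRB796 and 1.86 to 2.15 with both. Cardiomyocyte markers ran from 4.39 to 4.63 with BIRB796 and from 4.48 to 4.71 with both. The part of the makeup of the tissues in the levels of Ctgf, Cyr61, Lats2 and the other CCN genes was not tested.

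Ctgf and Cyr61 were also set against every gene across the 21 samples, after the mean of each scan session was taken off, to see which genes vary most like them. These correlations describe 21 samples that share sessions and treatments, stretch replicate 7 among them, and were not repeated without it. Among genes with a symbol, Ctgf varied most like Ell2 (r = 0.956), Plscr1 (0.939), Dgkg (0.936), Col8a1 (0.923) and Gpc4 (0.921). Of the members, Lats2 came nearest to it (0.834, rank 134 of 23255 genes) and Cyr61 next (0.726, rank 465). Ccn5 reached 0.898 (rank 25) and Yap1 -0.003. Cyr61 varied most like Pxdc1 (r = 0.843), Dusp1 (0.836), Tent4a (0.836), Adamdec1 (0.81) and Or6z5 (0.794). Amotl2 (0.745, rank 25) and Ctgf (0.726, rank 46) were the members nearest to Cyr61, and Yap1 had 0.176 and Tead1 -0.152.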

How the data were processed

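Cy3-labelled RNA was read on 1-colour Agilent rat arrays. Per the file headers, the deposited intensity of each spot is linear, background-subtracted by Feature Extraction (10.7.1.1, 10.7.3.1 and 11.0.1.1 in sessions 1, 2 and 3) and not normalized between arrays, with probe positions on rn4. A second, log2 table from the authors covers 27873 probes, and its 22 columns each correlated best with their own array (r = 1 to 3 digits), while its baseline is unknown (column medians -0.11 to 0.40). It served as an alternative.

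Control spots and outlier-flagged values (293) were left out and saturated spots kept. Processed signals were taken to log2, spots of a probe averaged and each array's 75th percentile subtracted. A probe had to be well above background on 4 or more of 22 arrays (26884 of 30367 were), and the brightest probe stood for a gene. Names came from a RefSeq table (17998 probes by accession, 2359 by symbol, 615 by synonym, 9395 with the file's name). A member's low signal, and 4 to 7 arrays a group, limit the precision.

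Fits used limma 3.58.1 in R 4.3.3 (two-sided, Benjamini-Hochberg over all genes) with group and scan session, on 4 groups together. The fit was tested on simulated data for BIRB796 against control. With all samples it recovered 37% of changes of 1 log2 unit and 83% of changes of 2. Session 3 alone recovered 66% and 85%, and each fit made 6 false calls among 23256 genes. A change near 1 can thus go uncalled. The members and lists were chosen with earlier results of these data known. Besides the 9 members, the text names genes called in the lists and a short set given whatever its values. Ccdc80, Crim1 and Nt5e, and the values of Igfbp3, F3 and Tgfb2 outside their calls, were picked after they were seen. Replicate numbers in session 1 share slides, and the deviations of same-numbered control and stretch tissues correlated at 0.51, 0.15 and 0.57. They were taken as pairs only in the alternative with a replicate block. The errors, intervals and p-values reported for stretch against control are unpaired. Alternatives covered scaling, background correction, the authors' table, dim-probe filters, the choice of probe, repeated arrays, session and slide terms, array weights and each sample left out. Normexp used the median spot signal.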

Additional observations from a re-analysis of the deposited data

Results flagged for a closer look

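Among 44 groups of 4 to 7 samples, 4 had a sample far from the others. About 1 in 20 groups is marked by chance where samples are independent and share a normal spread. Here control and stretch groups were pooled over scan sessions and all probes share the arrays, so that rate is only a rough guide. Cyr61 was 3.98 in stretch with BIRB796 replicate 1, against 1.49 to 1.85 in the other 3 tissues. The second Lats2 probe was -1.80 in that same tissue, against -2.24 to -2.19 in the other 3. In stretch replicate 1 that probe read -1.02, and the other 5 stretch samples lay between -1.80 and -1.54. Tead1 was -7.67 in stretch replicate 7, against -4.38 to -3.73, at a signal not well above background.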

How the results depend on the processing

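Under 14 alternatives and 21 single-sample removals, 1023 fold changes of members were recomputed, of which 41 had another sign than reported and 6 were called. The 6 calls came from array weights with a mean-variance trend, which called 4 members (Lats2, Ctgf, Amotl2 and Cyr61, adjusted p 0.00148, 0.00481, 0.0259 and 0.0332) among 2724 genes in BIRB796 against control, and 2 (Wwtr1 and Lats2, 0.00275 and 0.0107) among 4552 genes with both treatments against control. These weights called 4 genes for stretch against control, 111 for both treatments against BIRB796, 42 for both against stretch and 2 for the difference of stretch effects. The cause was not tested. Fits of the shared session alone, with fewer samples, called 460, 11 and 1777 genes for BIRB796 against control, both against BIRB796 and both against control. Without a session term 296 genes were called for stretch against control, 1 for both against control and 153 for both against stretch. With stretch replicate 7 also left out, a choice made after seeing the data, 436 were called for stretch against control, and Tead1 was 0.177. A random slide block called 1 and 80 genes for stretch and for both against control. Slide as a fixed block, added after seeing the data, called 2, 4 and 2 genes for BIRB796 against control, both against control and both against stretch. Array-median scaling called 4 genes for BIRB796 against control, and only probes above background on all arrays gave 14 for both against control.

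Signs turned as follows. Yap1 was 0.018 (median scaling) and 0.084 (weights) for BIRB796 against control. For both against control it was -0.588 (no session), -0.036 (random slide) and -0.088 (fixed slide), and for both against stretch 0.009 (weights). Tead1 without a session term was -0.333 for BIRB796 and -0.055 for both against control. With weights, Ctgf and Cyr61 were -0.013 and -0.178 for stretch, and Cyr61 was -0.050 for both against control. For both against stretch, Cyr61 was -0.297 (no session) and Wwtr1 -0.053 (no session) and -0.010 (fixed slide). Amotl2 was -0.762 (no session), -0.010 (random slide) and -0.084 (fixed slide) there, and Lats2 -0.031 (authors' table). The brightest probe was picked anew within the authors' table. In the fit of probes the second Lats2 probe had -0.032 ± 0.294 for that comparison and the brighter one 0.245 ± 0.220. The Lats2 value thus matches a change of probe.

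Leaving out 1 sample called 0 to 1 genes for stretch, 0 to 13 for BIRB796 and 0 to 145 for both against control, 0 to 2 for both against BIRB796, 0 to 1 for both against stretch and 0 to 1 for the difference, with 0 members each time. The 13 and 145 were without control replicate 7. Ranges that crossed 0 were -0.001 to 0.349 (Yap1), -0.180 to 0.404 (Ctgf) and -0.134 to 0.411 (Cyr61) for stretch, and -0.088 to 0.025 (Yap1) and -0.029 to 0.186 (Tead1) for BIRB796. For both against control they were -0.012 to 0.099 (Yap1) and -0.328 to 0.504 (Cyr61), and for both against stretch -0.033 to 0.266 (Wwtr1), -0.060 to 0.276 (Amotl2) and -0.444 to 0.388 (Cyr61). For the difference of stretch effects they were -0.274 to 0.077 (Yap1) and -0.254 to 0.044 (Wwtr1).

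The replicate block within session 1 called 0 genes for stretch against control (Ctgf 0.10) and within session 3 called 0 for both against BIRB796 (Ctgf -0.42), and changed no other call. In session 3 the same-numbered BIRB796 and combined-treatment tissues correlated at 0.53, 0.01, 0.08 and 0.08 for replicates 1 to 4. The replicate 1 tissues (0.53) shared slide 6 and the replicate 4 tissues slide 9, while replicates 2 and 3 shared no slide. Outside that block these numbers were not taken as pairs. The other comparisons share fewer than 2 numbers within a session. Dim probes such as Tead1 limit what can be read.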
